A study of Arabidopsis thaliana with 9 samples.

Results

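Genes down-regulated in both of the Arabidopsis thaliana genotypes with reduced Polycomb Repressive Complex 2 (PRC2) function, siFIE and clf swn, are described here. They were chosen by a rule on their own array signals: the mean log2 RMA signal of 3 arrays had to be more than 1.5 below wildtype Col in siFIE and also in clf swn, and the Col mean had to be above 9 on that scale, a signal of 512. Of the 30361 genes on the array 230 were retained, after 4 loci had been set aside. RMA values are gene-level hybridisation signals that were background-corrected and normalised across arrays. Because siFIE minus Col and clf swn minus Col chose the genes, those changes are given as a description, and no p-value of them is printed for any of the 230.

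PRC2 deposits the repressive histone mark H3K27me3, and in Arabidopsis the extra-sex-combs homologue FIE and the histone methyltransferases CLF and SWN are among its subunits. Loss of PRC2 is best known for releasing genes of other developmental programmes, such as floral and embryo genes. Array signals measure transcripts and do not show which genes carry the mark.

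Total RNA came from 12-day-old whole seedlings grown on MS agar at 22 °C in 16 h light and 8 h dark, with 3 pools of 10 to 12 plants for each genotype and 1 Cy3-labelled NimbleGen array of 60-mer probes for each pool. The siFIE seedlings were first-generation (T1) transformants with RNA interference against FIE, selected on 50 mg/L kanamycin, and plants of intermediate phenotype were pooled. The study's methods give Col as the ecotype of siFIE, whereas the growth protocol in the labels gives C24. Only Col was hybridised as wildtype. With a C24 background, ecotype and knock-down could thus not be told apart in siFIE against Col, nor ecotype and genotype in clf swn against siFIE. The clf swn plants were sterile double mutants picked from a segregating family, and the sources name their alleles both clf-7 swn-28 and swn-7 clf-28. No source used here says whether Col and clf swn were grown on kanamycin. If they were not, kanamycin and genotype could not be told apart in either contrast with siFIE.

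The targeted genes moved with the labels. FIE had a signal of 1976, 1768 and 1786 in Col and of 244, 281 and 321 in siFIE. SWN stood at 11186, 11516 and 11643 in Col and at 179.8, 392 and 118 in clf swn, and CLF at 11774, 12348 and 10798 against 3744, 4447 and 3852. Arrays of 1 genotype correlated at r = 0.991 to 0.994 over all genes, and no pair of arrays held identical values. Each array carries its own image number and no slide shared between arrays could be read from the files. Markers of seeds and embryos moved with both genotypes: 6 of 9 were called higher in siFIE and 9 of 9 in clf swn, where a call is a Benjamini-Hochberg adjusted p under 0.05 in limma and more than 2-fold. Their summed signal was 757 to 883 in Col, 4356 to 7729 in siFIE and 316348 to 334684 in clf swn, and no marker was listed at 0. Root hair markers summed to 44773 to 51777 in Col, 24611 to 38923 in siFIE and 9522 to 15235 in clf swn, with 1 and 8 of 9 called lower. Phloem and xylem markers summed to 99486 to 104282, 68798 to 78782 and 42525 to 45283, with 0 and 8 of 13 called lower, and root markers to 37248 to 43916, 33217 to 39318 and 21799 to 23396, with 1 and 6 of 11 called lower. Of all genes of the array 3.19% were called lower and 4.51% higher in siFIE, and 12.8% and 8.78% in clf swn. The part of such marker shifts in the results for the 230 genes was not tested. In RNA of whole seedlings fewer cells of a type and less RNA per cell cannot be told apart.

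In Col the 230 genes had signals from 514 to 34711 as geometric means, with a median of 2565. The rule set the lower end of that span, and the 10th percentile of the array in Col was 33.7. Their median signal was 625 in siFIE and 188 in clf swn. The median change was -1.89 in siFIE, with the lowest at -4.98, and -3.46 in clf swn, with the lowest at -7.93. Over all genes of the array the medians were -0.02 and 0.05. In clf swn 141 of the genes were more than 8-fold below Col and in siFIE 13. In each contrast 228 of the 230 also met the limma call for a lower signal, which 3.19% of all genes did in siFIE and 12.8% in clf swn, and since the rule used those contrasts nothing is read from the count.

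**Figure D1:**
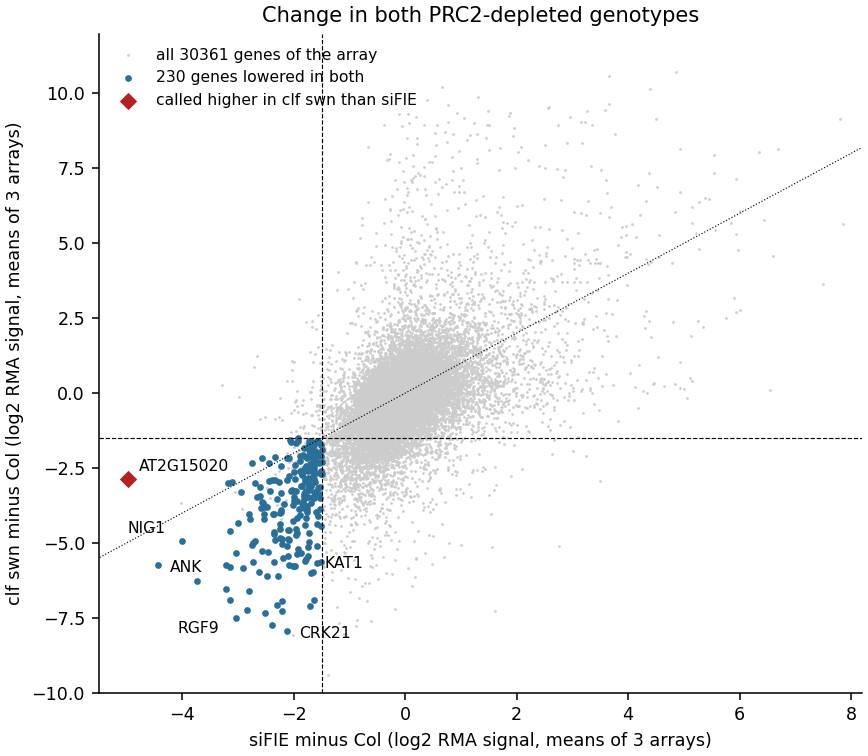
Log2 change of every gene of the array in siFIE (horizontal) and clf swn (vertical) against Col, from means of 3 arrays each. Blue points are the 230 genes chosen by the thresholds at -1.5 (dashed lines), and the dotted line marks equal change: 214 of the 230 lie below it and 16 above, AT2G15020 (red diamond) farthest above.

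All 3 siFIE arrays and all 3 clf swn arrays lay below all 3 Col arrays for all 230 genes, a separation that 19.2% of the array's genes had for siFIE and 26.4% for clf swn, and which the rule favours. Of the 230 genes 228 have their locus in the reference annotation of TAIR10.1, 117 have a symbol there and 7 are annotated as pseudogenes. The genes were read by 548 probes, with 2 probes for 140 genes, 3 for 89 and 1 for a single gene. Each of the 548 probes was lower in both genotypes than in Col when the raw probe signals were quantile normalised without background correction. The RMA values that chose the genes were made from these same probes, so the rule favours that outcome and nothing is read from it.

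The size of a fold change depended on the background correction. With those uncorrected probe signals the median change was -1.46 in siFIE and -2.19 in clf swn, and 213 of the 230 genes stayed more than 2-fold down in both. With normexp background correction the medians were -1.60 and -2.63. Folds and calls below are those of the deposited RMA values unless stated, and they are larger than without the correction. In clf swn 12 of the 230 genes lay below the 10th percentile of the array, a signal of 33.9, and none did in siFIE.

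The pools differed in how far the genes moved. The median of the 230 genes stood at -1.71 relative to the Col mean in siFIE pool 1, at -2.04 in pool 2 and at -2.05 in pool 3, whereas the clf swn pools stood at -3.46, -3.49 and -3.40. Pool 1 had the highest siFIE signal of the 3 for 158 of the 230 genes. The median standard deviation of the genes was 0.30 in siFIE, 0.25 in clf swn and 0.18 in Col on the log2 scale, against 0.14, 0.13 and 0.13 for the 17751 genes with a Col mean above 9.

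**Figure D2:**
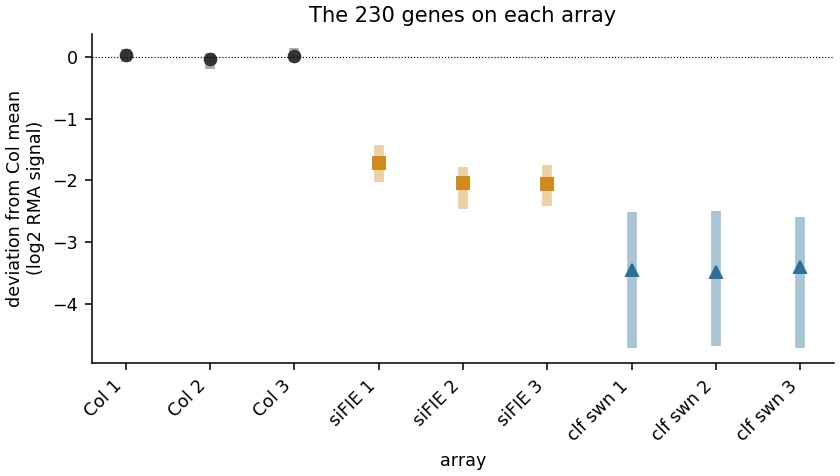
Deviation of the 230 genes from their Col mean on each of the 9 arrays, in log2 RMA signal. Markers are medians and bars run from the 25th to the 75th percentile over the genes; siFIE 1 sits at -1.71, above the other siFIE arrays, and the clf swn arrays lie between -3.49 and -3.40.

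A single dim spot on siFIE array 2 entered the siFIE mean of 3 genes. AT1G64370, of no annotated symbol, had signals of 19727, 21779 and 22727 in Col, 15197, 1037 and 14238 in siFIE and 5928, 5952 and 3470 in clf swn. On siFIE array 2 its first probe gave 332 against 9966 and 11657 on the other siFIE arrays, while its second probe gave 18467 against 23711 and 17847. AT5G28750 showed the same at 7581, 411 and 7639 in siFIE, with its second probe at 259 on array 2 and at 7306 and 8493 on the others. Without siFIE replicate 2 their siFIE changes were -0.54 and -0.67, outside the rule. The third was TIR (AT1G72930), described with the immune genes, whose change was -1.58 without that array and stayed within the rule. What dimmed those spots was not tested.

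Members lie close to the thresholds in every direction. The siFIE change was -1.501 for AT3G47295 and -1.502 for AT3G22150, just inside with AAE14 at the limit, and -1.497, -1.491 and -1.488 for AOR, PnsL3 and AT5G19580, just outside. The clf swn change was -1.505, -1.571 and -1.589 for AT1G32780, AT5G28750 and AT2G35130, inside, and -1.495, -1.345 and -1.251 for AT5G40790, CYP78A6 and GNC, outside. The Col means of AT1G13608, P1R1 and AT2G18480 were 9.01, 9.02 and 9.05, and those of BEE3, AT1G68110 and SQS2 were 8.90, 8.89 and 8.88. The other 142 genes outside the role groups used below, which were drawn up after the values had been seen, had median changes of -1.82 in siFIE and -3.15 in clf swn.

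Sequence is shown for 3 of the genes, because AT2G15020 had the lowest siFIE change of the whole array and BBX16 and AT5MAT are genes of known function among the 10 of the 230 genes that appear in the study's sheet of FIE-HA chromatin immunoprecipitation regions overlapping H3K27me3. Those 10 are 4.35% of the 230 genes, beside 2.22% of all genes of the array and 1.53% of those with a Col mean above 9. Whether these shares differ was not tested. The regions and their sequence were taken from that sheet. Each line gives a stretch around the first GAGAGA or its reverse complement TCTCTC, with these letters in capitals and both strands searched, as read in the sheet on the TAIR9 build, whose strand is not stated. AT2G15020 has stretches in 2 regions, Chr2:6491700-6492440 and Chr2:6492810-6493380, BBX16 (AT1G73870) lies in Chr1:27779060-27779610 and AT5MAT (AT3G29590) in Chr3:11398770-11400290, each assigned to the body of its gene.
AT2G15020, first region: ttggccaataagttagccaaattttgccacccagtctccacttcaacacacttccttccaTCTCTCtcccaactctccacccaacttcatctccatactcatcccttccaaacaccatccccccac
AT2G15020, second region: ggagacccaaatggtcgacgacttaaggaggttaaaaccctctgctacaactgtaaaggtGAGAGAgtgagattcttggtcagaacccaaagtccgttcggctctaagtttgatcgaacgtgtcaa
BBX16: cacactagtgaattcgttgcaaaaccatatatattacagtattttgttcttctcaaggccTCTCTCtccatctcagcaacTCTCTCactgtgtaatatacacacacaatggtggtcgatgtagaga
AT5MAT: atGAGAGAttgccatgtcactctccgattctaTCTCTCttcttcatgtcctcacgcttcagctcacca

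The letters occurred in 8 of the 11 regions within the 230 genes, read over the first 400 bases of each, and in 46.3% of all 654 regions of the sheet held at that length. A second run of letters, AAACCCTA, was searched as well and occurred in 1 of the 11 and in 18.65% of the 654. Whether either share differs was not tested. A match is a run of letters and no site is inferred from it.

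Stomata are the pores of the leaf epidermis, and 8 genes of their lineage and of guard cells were down-regulated in both genotypes. SPCH (AT5G53210), the bHLH factor that starts the stomatal lineage, had signals of 8632, 6433 and 6711 in Col, 2319, 2101 and 2253 in siFIE and 2184, 2311 and 1791 in clf swn. The siFIE and clf swn arrays of SPCH overlapped, at 3.24-fold and 3.45-fold below Col, and their difference of -0.09 ± 0.15 (SE) was not called (limma adjusted p = 0.66). EPF2 (AT1G34245), a secreted peptide that restrains entry into the lineage, fell from 1516, 1110 and 1474 to 362, 246 and 308 in siFIE and to 103, 69.3 and 158 in clf swn. STOMAGEN (AT4G12970), the mesophyll peptide that promotes stomata and competes with EPF2, gave 2121, 2062 and 2475 in Col, 956, 428 and 454 in siFIE and 737, 751 and 604 in clf swn. Both peptides were thus below Col. STOMAGEN overlapped between the genotypes (difference 0.28 ± 0.28, adjusted p = 0.46) and EPF2 was lower in clf swn (-1.54 ± 0.28, adjusted p = 0.0019). The EPF2 call ended in all 3 settings computed from probe signals, at -0.83, -0.54 and -0.85. Of the 4 other annotated EPF and EPF-like genes, 2 were called lower in siFIE (3.19% of all genes). In clf swn 1 was lower and 3 were higher (12.8% and 8.78%).

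SDD1 (AT1G04110), a subtilisin-like protease that limits stomatal density, stood at 2445, 2037 and 2167 in Col, 316, 591 and 513 in siFIE and 231, 352 and 268 in clf swn, and BASL (AT5G60880), which marks the polar cortex before asymmetric division, at 763, 837 and 624, 325, 189.9 and 186 and 145, 149 and 131. Their genotype differences of -0.71 and -0.67 were under 2-fold. The largest gap in the lineage was for the guard cell potassium channel KAT1 (AT5G46240), with 5760, 5631 and 4656 in Col, 1966, 1491 and 1669 in siFIE and 78.4, 80.1 and 98.4 in clf swn. KAT1 was thus 3.14-fold below Col in siFIE, 62.5-fold in clf swn and 19.9-fold lower in clf swn than in siFIE (log2 -4.32 ± 0.15, adjusted p = 4.8e-08). The related channel KAT2 (AT4G18290) went from 1399, 1160 and 1298 to 409.9, 313 and 283 and 48.3, 46.2 and 48.7, and the kinase BLUS1 (AT4G14480), which links phototropins to stomatal opening, from 4994, 4174 and 3428 to 1078, 989.5 and 1e+03 and 60.9, 90.7 and 77.2. For KAT1, KAT2 and BLUS1 no siFIE array overlapped with a clf swn array, and KAT2 and BLUS1 were 6.94-fold and 13.6-fold lower in clf swn, KAT2 without a call when the background was not corrected. One of the 3 BLUS1 probes showed a smaller clf swn change of -1.22, against -4.32 and -4.02 for the others.

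The list of 14 stomatal and guard cell markers contained 6 of the 230 genes. Of its other 8 genes, 4 were called lower in siFIE and 5 in clf swn, where 3.19% and 12.8% of all genes were, and SCRM was the single one called higher, in clf swn. The median of those 8 genes was -1.04 in siFIE and -1.79 in clf swn, beside -0.02 and 0.05 over all genes. EPF1, a second inhibitory peptide, was at -1.44 in siFIE and -1.82 in clf swn (limma adjusted p = 0.00032 and 1.6e-05), and the guard cell anion channel SLAC1 at -1.46 and -2.55 (0.001 and 7e-06). FMA, the bHLH factor of guard cell fate, was called lower in clf swn alone, at -2.45 (1e-06) against -0.52 in siFIE (0.035), and SCRM, the partner of SPCH, was at 1.78 (2.8e-06) against -0.24 (0.23). The clf swn minus siFIE differences of FMA and SCRM were -1.93 and 2.02 (adjusted p = 7.3e-06 and 1.9e-06). The summed signal of the list was 29412 to 34874 in Col, 12638 to 13877 in siFIE and 18783 to 20719 in clf swn, and no gene of it was listed at 0.

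Iron-deficient plants switch on a small group of bHLH factors, and all 4 of the group known as subgroup Ib were among the 230 genes. bHLH38 (AT3G56970) had signals of 5796, 5062 and 5745 in Col, 1390, 1180 and 949.9 in siFIE and 99.7, 273 and 266 in clf swn, and its chromosomal neighbour bHLH39 (AT3G56980) of 9203, 6294 and 10264, 2036, 2992 and 1905 and 409, 468 and 648. BHLH100 (AT2G41240) gave 7775, 7089 and 6858, 2006, 1379 and 1058 and 129, 283 and 384, and BHLH101 (AT5G04150) gave 1258, 1079 and 1156, 262, 109 and 80.5 and 40.9, 42.1 and 63.6. All 4 were 3.71-fold to 8.8-fold below Col in siFIE and 16.9-fold to 29.9-fold in clf swn, and each was called lower in clf swn than in siFIE, with log2 differences between -2.58 and -1.46. BHLH101 was not called in any of the 3 settings from probe signals, at -0.75, -0.45 and -0.69. The ferric reductase gene FRO6 (AT5G49730), expressed in leaves, showed the widest step: 16092, 17446 and 17195 in Col, 2939, 3238 and 3493 in siFIE and 95.2, 83.7 and 61.6 in clf swn. FRO6 was therefore 5.26-fold and 214-fold below Col, and 40.8-fold lower in clf swn than in siFIE (-5.35 ± 0.16, adjusted p = 2e-08). COPT2 (AT3G46900), a copper transporter, went from 2360, 1282 and 2287 to 501, 603 and 586 in siFIE and 110.2, 132 and 152 in clf swn, with no call between the genotypes when the background was not corrected.

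**Figure D3:**
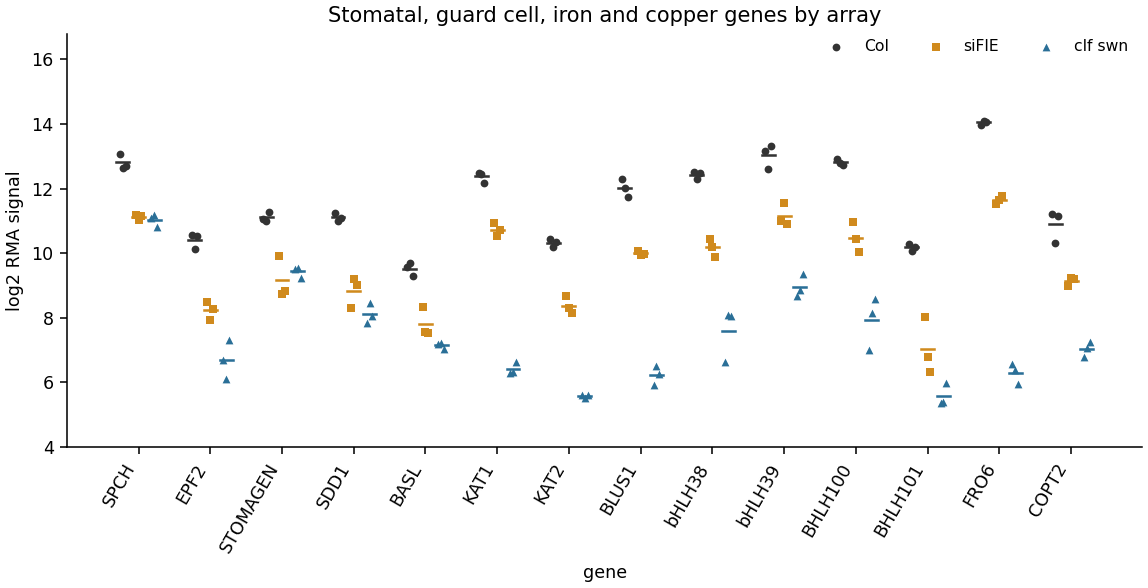
Log2 RMA signal on every array for 8 stomatal and guard cell genes and 6 iron and copper genes. Circles are Col, squares siFIE, triangles clf swn and lines are means of 3 arrays; SPCH and STOMAGEN overlap between siFIE and clf swn, while KAT1 and FRO6 fall to 3 separate levels.

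A list of 15 iron deficiency genes, drawn up after the values were seen, holds these 4 bHLH genes. Among its other 11 genes 1 was called lower in siFIE (3.19% of all genes) and 4 in clf swn (12.8%). FRU, the bHLH partner of the subgroup in roots, was at -0.03 in siFIE (adjusted p = 0.91) and at -2.45 in clf swn (1.4e-06), and the root iron transporter gene IRT1 at -0.42 (0.33) and -3.20 (9.5e-06). PYE, a bHLH factor of the same response, was at -0.38 (0.16) and 0.12 (0.61). Of 4 ferritin genes, which encode iron storage proteins, none was called lower and FER2 was called higher in clf swn, at 3.82 (2.4e-07).

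Small auxin up RNA (SAUR) genes promote cell expansion, and 9 of them were among the 230 genes. The cluster on chromosome 5 contributed SAUR19, SAUR20, SAUR21, SAUR23 and SAUR24, with SAUR24 the 13th annotated gene after SAUR19. SAUR20 (AT5G18020) had signals of 1601, 1983 and 1713 in Col, 259, 296 and 306 in siFIE and 31.6, 30.2 and 23.6 in clf swn, and SAUR24 (AT5G18080) of 1383, 1861 and 1529, 192, 262 and 282 and 69.8, 51.3 and 39.3. SAUR21 (AT5G18030) and SAUR19 (AT5G18010) lay 4.65-fold and 5.79-fold below Col in siFIE and 32.4-fold and 18.4-fold in clf swn. These 4 were called lower in clf swn than in siFIE, with a difference of -3.34 ± 0.15 for SAUR20 (adjusted p = 2.1e-07). From probe signals SAUR19 was not called in any of the 3 settings, at -0.91, -0.54 and -0.87, and SAUR21 and SAUR24 were not without background correction, at -0.89 and -0.76. SAUR23 (AT5G18060) was the exception, at 489.7, 654 and 502 in Col, 63.3, 60.2 and 66 in siFIE and 222, 29.1 and 53.2 in clf swn, where array 1 stood apart through 1 of its 2 probes. The genes of the cluster are close paralogues, so 1 transcript may bind the probes of another, and their values are not independent.

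SAUR16 (AT4G38860) gave 2960, 2094 and 3172 in Col, 838, 572 and 695 in siFIE and 77.8, 138 and 149 in clf swn. SAUR75 (AT5G27780), SAUR29 (AT3G03820) and SAUR26 (AT3G03850) were 4.92-fold, 3.99-fold and 3.49-fold below Col in siFIE and 11.5-fold, 12.2-fold and 7.23-fold in clf swn. Between the genotypes SAUR75 and SAUR26 kept no call in any of the 3 settings from probe signals, and SAUR29 none without background correction. Of the 79 genes annotated by a SAUR symbol, the 70 outside the 230 included 13 called lower and 5 called higher in siFIE, beside 3.19% and 4.51% of all genes. In clf swn 24 of those 70 were lower and 9 higher, beside 12.8% and 8.78%. The median of the 70 was -0.20 in siFIE and -0.31 in clf swn. In a list of 17 growth-related SAUR genes, 9 of the 12 outside the 230 were called lower in siFIE and 10 in clf swn. SAUR63 was at -2.23 and -4.21 (adjusted p = 0.00012 and 3.6e-07) and SAUR66 at -2.48 and -3.16 (2e-05 and 6.5e-07), and both missed the rule only through their Col mean.

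Auxin signalling and transport gave SHY2 (AT1G04240, the repressor IAA3), with 1446, 2045 and 1608 in Col, 683, 407 and 523 in siFIE and 373, 289.9 and 269 in clf swn, and the efflux carrier PIN3 (AT1G70940), with 6577, 6137 and 9265, 2287, 2483 and 2178 and 1587, 1963 and 1739. Neither differed by more than 2-fold between the genotypes. The related carriers PIN4 and PIN7 were called lower as well, PIN4 at -1.26 and -1.54 (adjusted p = 0.00039 and 2.5e-05). Over the 14 listed auxin genes outside the 230, 4 were lower in siFIE, and 6 were lower and 2 higher in clf swn, beside the shares of all genes given for the SAUR family.

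Brassinosteroid- and gibberellin-related growth genes formed a further group. BEE2 (AT4G36540), a bHLH factor induced by brassinosteroid, had signals of 7458, 8442 and 6674 in Col, 2820, 2156 and 1942 in siFIE and 226, 264 and 232 in clf swn. KDR (AT1G26945, also PRE6), an atypical bHLH protein of light and hormone signalling, had 1342, 1653 and 1544, 314, 231 and 216 and 77.4, 114 and 136. BEH1 (AT3G50750), a homologue of the brassinosteroid factor BES1, was at 6022, 3927 and 6839, 1645, 1409 and 1660 and 1016, 858 and 1017. GASA6 (AT1G74670), a gibberellin-regulated peptide, stood at 5750, 6464 and 6284, 3297, 1617 and 1862 and 119, 131 and 121, so that it was 2.87-fold below Col in siFIE and 49.9-fold in clf swn. Between the genotypes BEE2 and GASA6 were 9.49-fold and 17.4-fold lower in clf swn (adjusted p = 4.4e-07 and 9.6e-07). The call of KDR ended in all 3 settings from probe signals, and BEH1 differed by -0.71 ± 0.20, under 2-fold.

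Of the 18 other genes on the list, 5 were called lower and 1 higher in siFIE and 8 lower in clf swn, where 3.19%, 4.51% and 12.8% of all genes were. BEE3 was at -2.10 and -2.79 (adjusted p = 0.0009 and 3.9e-05), and the gibberellin synthesis gene GA3OX1 at -1.19 and -4.09 (0.0012 and 9.5e-08). GASA1 moved to opposite sides, at 1.21 in siFIE and -1.22 in clf swn (5.4e-05 and 9e-06).

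EXPA8 (AT2G40610), a cell wall-loosening expansin, had signals of 9794, 8274 and 8308 in Col, 1215, 935 and 1176 in siFIE and 328, 362 and 691 in clf swn. It was the single gene of the 230 on a list of 29 expansins and xyloglucan endotransglucosylases, and it lost its call between the genotypes without background correction. Of the other 28, 5 were called lower and 3 higher in siFIE (3.19% and 4.51% of all genes), and 9 lower and 4 higher in clf swn (12.8% and 8.78%). Their medians were -0.15 and -0.30.

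Among peptides and regulators of organ growth, RGF9 (AT5G64770), a root meristem growth factor peptide, went from 3883, 3989 and 3121 in Col to 846, 316 and 324 in siFIE and 22, 16.9 and 22.4 in clf swn, and RGF6 (AT4G16515) from 1724, 1825 and 1980 to 470.2, 358 and 363 and 115, 126 and 110.0. RGF9 was 179.6-fold below Col in clf swn, where its signal lay below the 10th percentile of the array, and 16.3-fold without background correction. Of the 6 other RGF genes none was called lower and 1, RGF7, higher in siFIE, at 1.44 (adjusted p = 0.00073), and 2 were lower in clf swn. Over all genes 3.19% were lower and 4.51% higher in siFIE, and 12.8% lower in clf swn. TCP4 (AT3G15030), a factor that ends cell proliferation in leaves, stood at 5526, 4873 and 7434 in Col, 2015, 1878 and 1830 in siFIE and 359, 613 and 696 in clf swn. Its relatives TCP2 and TCP3 were called lower too, at -1.06 and -1.06 in siFIE (adjusted p = 0.00024 and 0.00094) and -2.08 and -2.43 in clf swn (5.9e-07 and 1.1e-06). The list of leaf polarity and growth regulators held 22 genes that the rule did not choose. In siFIE 3 of the 22 were called lower and 0 higher. In clf swn 3 were lower and 6 higher, beside 12.8% and 8.78% of all genes. The medians of the 22 were -0.18 in siFIE and 0.72 in clf swn. ZFP8 (AT2G41940), a zinc finger factor of trichome initiation, gave 19495, 15149 and 17629 in Col, 4845, 3577 and 4274 in siFIE and 1991, 1630 and 1777 in clf swn, and ETC2 (AT2G30420), a small MYB protein that inhibits trichomes, 465, 647 and 522, 156, 109 and 146 and 85.5, 96 and 77.9. The calls of RGF6 and ZFP8 between the genotypes ended without background correction. ZFP8 was the only 1 of 16 trichome markers called lower in siFIE.

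Light, clock and flowering genes differed in how far they fell. CCA1 (AT2G46830), the morning MYB factor of the circadian clock, had signals of 11514, 8312 and 9541 in Col, 3531, 3015 and 3353 in siFIE and 2779, 2463 and 2120 in clf swn. LHY, its closest relative, was at -0.31 in siFIE and 0.27 in clf swn (adjusted p = 0.20 and 0.18). Of the other 15 clock genes 3 were called lower and 2 higher in siFIE (3.19% and 4.51% of all genes). In clf swn none of the 15 was lower and 3 were higher (12.8% and 8.78%). PRR9 was at -2.21 and -0.89 (0.0011 and 0.042) and BOA at 1.56 and 3.14 (7.5e-05 and 1.4e-07). No source used here states the hour of harvest. CDF1 (AT5G62430), a DOF repressor of CONSTANS, went from 5522, 4181 and 5720 to 1394, 895 and 796 in siFIE and 443, 238 and 287 in clf swn.

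PKS2 (AT1G14280), a phytochrome kinase substrate, had 7218, 7272 and 6817 in Col, 1582, 1169 and 1593 in siFIE and 33.1, 59.3 and 77.6 in clf swn, a 4.95-fold and a 133-fold fall. RPT2 (AT2G30520), a signal transducer of phototropism, stood at 10516, 7962 and 11950, 2382, 1969 and 2058 and 1171, 753 and 1069, and its call between the genotypes ended in all 3 settings from probe signals. BBX16, a B-box protein whose sequence is shown above, stood at 1320, 1190 and 1762, 296, 269.9 and 199 and 120.1, 88.7 and 97.6, with no call between the genotypes without background correction. COL2 (AT3G02380), a CONSTANS-like B-box protein, stood at 3312, 3222 and 3286, 1579, 846 and 848 and 918, 1118 and 904, with the siFIE and clf swn arrays overlapping. SNZ (AT2G39250), an AP2-type floral repressor, also reached like levels, 1182, 534 and 555 in siFIE and 721, 827 and 729 in clf swn against 3635, 4598 and 3348 in Col. COL2 and SNZ differed between the genotypes by -0.10 ± 0.23 and 0.10 ± 0.28 (adjusted p = 0.77 and 0.8). PCC1 (AT3G22231), a gene linked to pathogens and the circadian cycle, fell to 649.6, 443 and 152 in siFIE and 53.5, 68.1 and 46.3 in clf swn from 3570, 2412 and 3442, and RAV2 (AT1G68840), a repressor of FT, to 1813, 2003 and 1662 and 666, 574 and 764 from 6270, 7076 and 8674. Of the 29 other annotated B-box genes, 4 were called lower in siFIE (3.19% of all genes), and 9 lower and 2 higher in clf swn (12.8% and 8.78%).

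Immune genes held some of the strongest signals. ACD6 (AT4G14400), an ankyrin-repeat membrane protein that promotes salicylic acid-dependent defence, had the highest Col mean of the 230 genes, with 39897, 34756 and 30160 in Col, 4867, 4263 and 2928 in siFIE and 248, 406 and 241 in clf swn. It was 8.83-fold and 120.0-fold below Col. ANK (AT5G54610), another ankyrin-repeat gene, had one of the lowest siFIE changes, from 2105, 1161 and 1709 in Col to 89.7, 78.4 and 58.8, and reached 31, 36.2 and 25.1 in clf swn. The step of ANK between the genotypes lost its call in all 3 settings from probe signals, at -0.70, -0.35 and -0.62. WRKY70 (AT3G56400), a transcription factor between salicylic acid and jasmonate signalling, stood at 15070, 12124 and 15164 in Col, 4545, 5265 and 4565 in siFIE and 1464, 1113 and 1515 in clf swn.

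CRK21 (AT4G23290), a cysteine-rich receptor-like kinase, went from 4953, 4693 and 5130 in Col to 1415, 972 and 1056 in siFIE and 20.3, 22.5 and 18.1 in clf swn. Relative to Col it was down 4.35-fold in siFIE, and in clf swn 244-fold, and it was 56-fold lower in clf swn than in siFIE (-5.81 ± 0.16, adjusted p = 1.1e-08). Its clf swn signals lay below the 10th percentile of the array, so that these folds rest on the lowest end of the scale. Without background correction CRK21 was 3.55-fold below Col in siFIE and 21.3-fold in clf swn, with a difference of -2.59. CRK4 (AT3G45860) and CRK6 (AT4G23140) were 4.08-fold and 3.47-fold below Col in siFIE and 9.51-fold and 20.9-fold in clf swn. The call between the genotypes ended in all 3 settings from probe signals for CRK4 and without background correction for CRK6. Of the 38 other annotated genes of this kinase family, 4 were called lower and 1 higher in siFIE (3.19% and 4.51% of all genes), and 19 lower in clf swn (12.8%).

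TIR (AT1G72930), a protein with a Toll/interleukin-1 receptor domain, gave 9670, 7272 and 10692 in Col, 3263, 278 and 2855 in siFIE and 319.7, 249 and 295 in clf swn. Its neighbours AT1G72890 and AT1G72910 were also among the 230, AT1G72910 with 5268, 4440 and 4675, 1515, 896 and 1023 and 107, 151 and 80.8. The low siFIE array 2 of TIR lay within the clf swn range. TIR passed the call between the genotypes by little (adjusted p = 0.042), and with any single array other than siFIE replicate 2 left out its adjusted p was 0.057 to 0.14. LURP1 (AT2G14560), which responds to the oomycete Hyaloperonospora, went from 2643, 1755 and 2212 to 698, 512 and 380.0 in siFIE and 134, 51.6 and 55.5 in clf swn. ICS2 (AT1G18870), an isochorismate synthase, stood at 3805, 7317 and 6104, 1632, 2439 and 1751 and 376, 428 and 345. RLP23 (AT2G32680), a receptor-like protein that recognises microbial NLP peptides, stood at 1366, 518 and 1194, 104, 175 and 149.9 and 128, 232 and 218, and siFIE and clf swn did not separate (0.42 ± 0.38, adjusted p = 0.42). PRB1 (AT2G14580), the thionin gene THI2.2 (AT5G36910) and the aspartyl protease gene AED1 (AT5G10760) were 3.87-fold, 3.06-fold and 3.64-fold below Col in siFIE and 9.73-fold, 7.77-fold and 8.53-fold in clf swn. Their calls between the genotypes ended without background correction, and that of PRB1 also in both normexp settings.

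None of 16 listed jasmonate and defence genes was among the 230, and the list went the other way in siFIE, with 9 called higher, none lower and a median of 1.16. In clf swn 6 were lower and 4 higher. Over all genes 3.19% were lower and 4.51% higher in siFIE, and 12.8% and 8.78% in clf swn. JAZ10, a jasmonate repressor, was at 4.37 in siFIE and 2.41 in clf swn (adjusted p = 1.5e-05 and 0.00013), and the thionin gene THI2.1 at 4.80 and 2.37 (1.9e-05 and 0.00034).

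**Figure D4:**
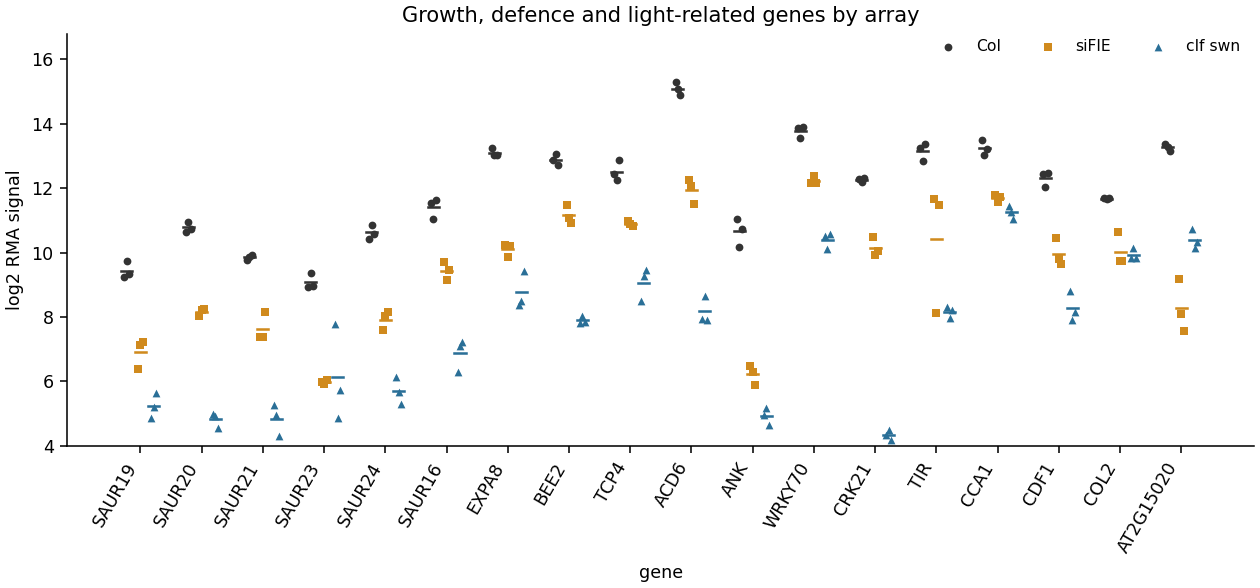
Log2 RMA signal on every array for 18 growth, defence and light-related genes. Circles are Col, squares siFIE, triangles clf swn and lines are means of 3 arrays; the low siFIE point of TIR is array 2, the high clf swn point of SAUR23 is array 1, and AT2G15020 is lower in siFIE than in clf swn.

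Chloroplast and carbon genes numbered 15, with a median difference between the genotypes of -2.22. LHB1B1 (AT2G34430), a light-harvesting protein of photosystem II, had signals of 15297, 18024 and 20085 in Col, 6466, 4578 and 5365 in siFIE and 172, 167 and 72.7 in clf swn. The carbonic anhydrase genes CA2 (AT5G14740) and ACA1 (AT3G52720) went to 1335, 1001 and 1137 and 4385, 2416 and 2461 in siFIE and to 53.6, 144 and 25.9 and 689, 621 and 549 in clf swn, from 3542, 3631 and 3976 and 15075, 15226 and 15341 in Col. The 2 probes of CA2 disagreed in clf swn, at -0.98 and -6.82 without background correction, and in siFIE CA2 was 1.79-fold below Col in that setting. FBA5 (AT4G26530), a fructose-bisphosphate aldolase, stood at 18968, 20184 and 25063, 3800, 3852 and 3840 and 406, 372 and 200.3. LHB1B1 was 3.27-fold below Col in siFIE and 138-fold in clf swn, a difference of -5.41 ± 0.31 (adjusted p = 1.1e-06).

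The NDH complex carries cyclic electron flow around photosystem I, and 3 of its nuclear subunits were among the 230. PnsL1 (AT2G39470), PnsL4 (AT4G39710) and NdhU (AT5G21430) were 3.03-fold, 3.09-fold and 3.84-fold below Col in siFIE and 15.7-fold, 7.3-fold and 17.9-fold in clf swn. NdhU, for example, had 3942, 3445 and 4244 in Col, 1070, 1045 and 909 in siFIE and 176, 209 and 272 in clf swn. Of 13 other annotated NDH subunits 9 were called lower in siFIE and 13 in clf swn, and the medians of those 13 were -1.25 and -3.38. Over all genes 3.19% were called lower in siFIE and 12.8% in clf swn. Of 22 listed light-harvesting, photosystem and Rubisco genes, 2 were called lower in siFIE and 20 in clf swn, with medians of -0.45 and -2.26. None of the 22 was among the 230, but this was partly fixed in advance. The list does not hold LHB1B1, and a Rubisco gene on it was among the 4 loci set aside. Whether the 2 lists differed in siFIE was not tested.

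Sugar genes followed. ATSPS4F (AT4G10120), a sucrose-phosphate synthase, stood at 5754, 5178 and 6327 in Col, 2323, 1755 and 1705 in siFIE and 236, 364 and 244 in clf swn, and the sugar transporter gene STP14 (AT1G77210) at 1439, 1684 and 1501, 435, 384 and 539.5 and 23.4, 32.8 and 48.4. The trehalose-phosphate phosphatase TPPH (AT4G39770), the transporter STP11 (AT5G23270) and the plastid phosphoenolpyruvate translocator PPT2 (AT3G01550) were 5.81-fold, 4.73-fold and 3.24-fold below Col in siFIE. TPPH and STP11 kept no call between the genotypes in any setting from probe signals. SWEET13 (AT5G50800), a sucrose exporter, and CIA2 (AT5G57180), a regulator of chloroplast protein import genes, differed by less than 2-fold between the genotypes, at -0.67 and -0.31. AAE14 (AT1G30520), of phylloquinone synthesis, was 2.83-fold and 6.51-fold below Col.

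Anthocyanin decoration genes were low in both genotypes. AT5MAT, the malonyltransferase whose sequence is shown above, had signals of 3206, 1952 and 3001 in Col, 1062, 491 and 270.0 in siFIE and 74.6, 104 and 136 in clf swn, and UF3GT (AT5G54060), a glycosyltransferase, of 4012, 2863 and 4603, 1137, 1186 and 517 and 75.7, 56.6 and 82.9. PAL3 (AT5G04230), of the phenylalanine ammonia-lyase family, stood at 8058, 6242 and 8051, 1832, 1891 and 2164 and 195, 165 and 249.9. All 3 were called lower in clf swn than in siFIE, AT5MAT not without background correction. Of the 14 other flavonoid and anthocyanin genes 5 were called lower in siFIE (3.19% of all genes), and 5 lower and 8 higher in clf swn (12.8% and 8.78%). DFR and LDOX, the late enzymes of anthocyanin synthesis, were at -1.24 and -1.48 in siFIE (adjusted p = 0.0049 and 0.025) and -5.34 and -5.77 in clf swn (1.2e-07 and 2.1e-06), whereas the flavonol factor MYB11 was at -0.44 and 4.28 (0.33 and 1.8e-06) and the hydroxylase TT7 at -0.31 and 2.75 (0.20 and 5.5e-07).

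Carotenoid cleavage genes included NCED4 (AT4G19170), with 9818, 7551 and 10576 in Col, 1107, 1744 and 1213 in siFIE and 71.2, 106 and 109.6 in clf swn, and NCED3 (AT3G14440), the stress-induced enzyme of abscisic acid synthesis, with 863, 1096 and 1324, 301, 358 and 331 and 206, 254 and 357. D27 (AT1G03055), the carotene isomerase of strigolactone synthesis, stood at 1508, 1514 and 1416, 345, 227 and 181 and 174, 170.2 and 156. NCED4 differed by -3.82 ± 0.23 between the genotypes (adjusted p = 1.5e-06), and NCED3 and D27 by -0.31 and -0.54, neither of them called.

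Genes of phosphate and membrane lipid supply comprised MGDC (AT2G11810), a galactolipid synthase induced by phosphate starvation, with 8358, 5212 and 6686 in Col, 2387, 1374 and 1080 in siFIE and 168, 186 and 224 in clf swn, and the purple acid phosphatase PAP14 (AT2G46880), with 2426, 1828 and 2806, 447, 686 and 348 and 29.5, 36 and 37.2. Both genes had 1 of 3 probes with a smaller clf swn change, of -1.31 for MGDC and -0.32 for PAP14. PAP24 (AT4G24890) and the phosphodiesterase GDPD6 (AT5G08030) were 4.67-fold and 5.78-fold below Col in siFIE and 5.41-fold and 13.8-fold in clf swn, and GDPD6 kept no call between the genotypes in any setting from probe signals. Of cuticle genes, KCS16 (AT4G34250), a ketoacyl-CoA synthase of wax synthesis, stood at 962, 1320 and 1217 in siFIE and 1373, 1602 and 1621 in clf swn against 7098, 6786 and 6797 in Col, a difference of 0.40 ± 0.14 that was under 2-fold, while DCF (AT3G48720), the deficient in cutin ferulate gene, went to 928, 564 and 757 and 129, 201 and 155 from 2701, 2297 and 2458. A list of 20 cutin, wax and lipid transfer genes held none of the 230. In siFIE 1 was called lower and 2 higher (3.19% and 4.51% of all genes), and in clf swn 6 lower and 4 higher (12.8% and 8.78%).

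The adjacent cytochrome P450 genes CYP706A5 (AT4G12310) and CYP706A6 (AT4G12320) fell side by side. CYP706A6 had 4216, 3639 and 3809 in Col, 765, 254 and 371 in siFIE and 36.5, 44.1 and 45.9 in clf swn, and CYP706A5 had 3348, 3137 and 2675, 734, 386 and 306 and 151, 182 and 167. CYP71B24 (AT3G26230) and CYP71B2 (AT1G13080) were 3.83-fold and 3.34-fold below Col in siFIE and 25.6-fold and 7.07-fold in clf swn. Of the 4 P450 genes, CYP706A6 alone was called lower in clf swn than in siFIE without background correction. In all, 40 of the 230 genes lay in 18 runs in which no more than 5 annotated genes of TAIR10.1 stood between one member and the next. The runs of 3 or more were the SAUR cluster and the TIR neighbourhood, and 4 pairs were directly adjacent, namely bHLH38 and bHLH39, CYP706A5 and CYP706A6, AT2G29290 and AT2G29300, and STOMAGEN and AT4G12980. Paralogues within a run can share hybridisation.

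Several of the strongest falls were in genes outside these groups. NUDT24 (AT5G19470), a nudix hydrolase, had signals of 11649, 11687 and 9454 in Col, 932, 1074 and 542 in siFIE and 130.0, 154 and 139.8 in clf swn. NIG1 (AT5G46830), a bHLH factor of the salt response, went to 73.7, 67.8 and 58.7 in siFIE and 30.0, 37.2 and 37.9 in clf swn from 1264, 707 and 1369, and CIPK20 (AT5G45820), a calcineurin B-like interacting kinase, to 1588, 547 and 691 and 23, 34.9 and 33.7 from 4870, 4860 and 4696. ECS1 (AT1G31580), a cell wall protein, stood at 34167, 32363 and 29310 in Col, 13104, 9610 and 9717 in siFIE and 566, 714 and 613 in clf swn, and AT2G39850, for which the annotation gives no symbol, at 22016, 22406 and 22350, 7803, 7476 and 7322 and 1924, 2376 and 2228. Among other genes with no symbol, AT1G60590 and AT3G16670 were 7.18-fold and 4.66-fold below Col in siFIE and 152-fold and 122-fold in clf swn, AT2G27420 9.29-fold and 53.6-fold, and AT5G54585 9.03-fold and 7.93-fold. Without background correction the clf swn changes of single probes ran from -4.109 to -1.545 for NIG1 and from -4.236 to -1.425 for AT2G27420.

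How the 2 genotypes differed from each other was tested directly with limma. The limits on ecotype and kanamycin given above hold for that contrast too. Of the 230 genes 146, or 63.5%, were called lower in clf swn than in siFIE, 83 were not called and 1 was called higher. Over the array 11.0% of genes were called lower and 6.82% higher in that contrast, and among the 17751 genes with a Col mean above 9 the shares were 13.1% and 4.69%. All 3 clf swn arrays lay below all 3 siFIE arrays for 184 of the 230 genes, against 24.6% of all genes. The rule drew on the same arrays, and it set a single lower limit for both genotypes, so the counts describe the 230 genes. When probe signals were used, 117 and 120 genes were called lower with normexp and 83 without background correction. Those 83 were all among the 146, and 25 of the 146 were called in none of the 3 settings. The p-values rest on 1 spread per gene shared by all 9 arrays, Col included, and moderated over genes. Each pool had 1 array, so variation between pools and between hybridisations is mixed. No result here separates plants within a pool.

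The median difference over the 230 genes was -1.42, beside 0.06 over the array. By role, all 6 iron and copper genes, all 4 P450 genes and all 3 phenylpropanoid genes were called lower in clf swn, as were 13 of 15 chloroplast and carbon genes and 12 of 13 immune genes. The share was smaller for stomatal and guard cell genes, with 4 of 8, and for the light, clock and flowering genes, with 6 of 9, and it was 8 of 11 for SAUR and auxin genes. Without background correction the counts were 4 of 6 for iron and copper, 1 of 4 for P450, 2 of 3 for phenylpropanoid, 10 of 15 for chloroplast and carbon, 6 of 13 for immune, 2 of 8 for stomatal, 4 of 9 for light, clock and flowering and 2 of 11 for SAUR and auxin genes. Those differences between role groups were not tested. In the deposited RMA values the 5 largest differences were those of CRK21, LHB1B1, FRO6, AT1G14250 at -5.26 ± 0.17 and AT1G66100 at -5.06 ± 0.23 (adjusted p = 3e-08 and 2.2e-07). The order changed with the background correction: without it the 5 were LHB1B1 at -3.57, ECS1 at -3.56, FRO6 at -3.33, AT1G14250 at -3.28 and CA2 at -3.06. AT1G14250 had 8538, 10229 and 9144 in Col, 3035, 3199 and 2731 in siFIE and 65.8, 101 and 71.2 in clf swn. Its probes disagreed in size in clf swn, at -3.30 and -6.21 relative to Col without background correction.

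AT2G15020, whose 2 regions are printed above, was the single gene called higher in clf swn than in siFIE. Its signals were 10500, 9818 and 9183 in Col, 585, 274 and 188 in siFIE and 1716, 1120 and 1293 in clf swn. All siFIE arrays lay below all clf swn arrays and these below all Col arrays. It was thus 31.6-fold below Col in siFIE and 7.25-fold in clf swn, and 4.35-fold higher in clf swn than in siFIE (2.12 ± 0.35, adjusted p = 0.0011). Of the other 15 genes with the larger fall in siFIE none passed the call at 2-fold.

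**Figure D5:**
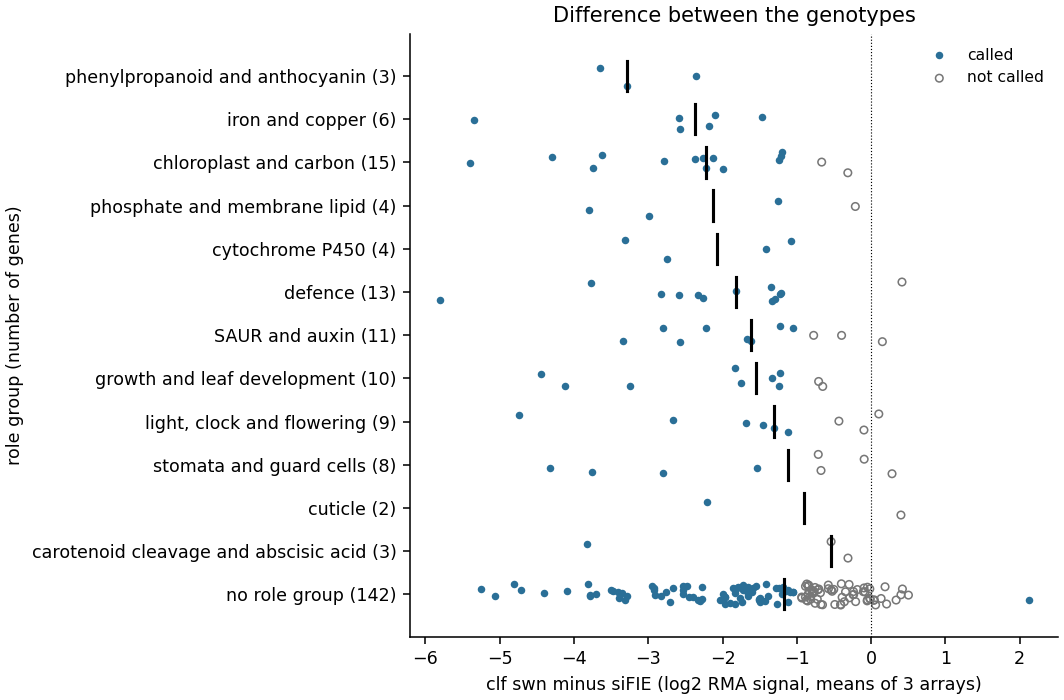
Log2 difference clf swn minus siFIE for each of the 230 genes, by role group, with the number of genes in parentheses. Filled points were called (adjusted p under 0.05 and over 2-fold), open points were not and vertical lines are group medians; 146 filled points lie left of zero and 1, AT2G15020, to the right.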

How the data were processed

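The deposited values are RMA signal intensities on a linear scale, which the authors made from the probes of each gene on the NimbleGen array (gene models of TAIR 6); image analysis used NimbleScan 2.4.31, and no source used here names the RMA software or its settings. Raw probe signals were also deposited as intensity values and were used for the alternatives. The deposited RMA values were taken to log2, and limma 3.58.1 (lmFit, eBayes; R 4.3.3) was applied to all 9 arrays, 3 each of Col, siFIE and clf swn. To be called, a gene had to change more than 2-fold with an adjusted p (Benjamini-Hochberg, over 30361 genes) under 0.05. Python 3.11.15 with pandas 2.3.3, numpy 2.4.6 and matplotlib 3.10.9 served for tables and plots. On simulated data with 30361 genes, the comparison of clf swn with siFIE recovered 83% of genes changed by 1.5 on the log2 scale and 98% of those changed by 3, with 3 false calls. There 100 genes were changed at each size and no others, with normal noise of 1 spread per gene for all genotypes. The real arrays differ in far more genes and in spread between genotypes, so these rates need not hold for them.

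The members of the gene set and all lists were chosen with earlier results of these data known. Named were the 15 members with the lowest mean of both changes, the 8 with the lowest siFIE change, the 8 with the highest Col mean, the 5 with the largest difference between genotypes in each direction, the 3 genes on each side of every threshold, members on a list or in a run of 3 or more neighbours, and up to 4 other genes of each list by smallest p. Any other gene was named after its values were seen. Gene symbols came from the TAIR 10.1 annotation, and 366 of 368 listed genes were used. The number of arrays limits the precision. Alternatives were probe signals with other background corrections and normalisations, a filter on dim genes, fits with the compared groups alone, a replicate block, each array left out, other thresholds of the rule and no fold threshold.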

Additional observations from a re-analysis of the deposited data

Results flagged for a closer look

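These values stand out through the tested difference between the genotypes (limma, clf swn minus siFIE), on the arrays that also chose the genes. Of the 230 genes, 146 were called lower in clf swn than in siFIE and 1 was called higher. The log2 difference was -5.81 for CRK21, -5.41 for LHB1B1, -5.35 for FRO6, -5.26 for AT1G14250 and -5.06 for AT1G66100. For AT2G15020 it was 2.12, in the opposite direction.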

How the results depend on the processing

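Without background correction of the probe signals, the genes called lower in clf swn than in siFIE numbered 83 in place of 146, the calls over all genes 3032 in place of 5421 for clf swn against siFIE, 1126 in place of 2338 for siFIE against Col and 3935 in place of 6562 for clf swn against Col. For siFIE against Col normexp gave 1551 calls with quantile normalisation and 1503 with median scaling. The rule, met by 230 genes, was met by 98 without background correction and by 147 under either normexp setting, and by 593 at a change below -1 and 91 below -2. With no fold threshold 4 genes were higher in clf swn than in siFIE, and the calls over all genes were 12613, 6149 and 14223 in the order above. Leaving out single arrays gave 135 to 150 genes lower in clf swn, 1 higher in each case, 206 to 229 genes of the rule, 5267 to 5524 calls for clf swn against siFIE, 2151 to 2564 for siFIE against Col and 6438 to 6712 for clf swn against Col. TIR lost its call between genotypes without any 1 array other than siFIE replicate 2. No difference between genotypes that was called under either setting changed sign, but some of those not called did. For example, COL2 went from -0.10 to between 0.01 and 0.05 with probe signals. AT5G28750 went from 0.50 to -0.90 without siFIE replicate 2. AT3G22150, lower in clf swn than in siFIE in the deposited values, was at 0.005 with normexp and median scaling. Deviations of same-numbered arrays correlated at -0.164 to 0.169, so the numbers were not taken as pairs; the replicate block gave 146 genes lower and 1 higher, and 5390, 2317 and 6542 calls over all genes. Dim signals limit the folds in clf swn, where 12 of the 230 genes lay below the 10th percentile of the arrays.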
